A study of Mus musculus with 6 samples.

Results

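Genes of respiratory complex I were taken by symbol, as every Nduf gene of the A, B, C, S and V series on the array, which gave 33 genes out of 18138 symbols. These genes had 42 of the 25697 probes, and each gene was represented by the probe with the highest mean signal over the 6 arrays. The symbols covered 32 structural subunits and *Ndufa4*, whose product was once counted in complex I and is now assigned to complex IV. RNA came from cochlear tissue of 3 wild-type (WT) and 3 *Cmah*-null samples, from mice 12 months old, of strain C57BL/6 by the labels and C57BL/6J by the study's methods. *Cmah* encodes the hydroxylase that makes the sialic acid Neu5Gc, and the null mice carry its knockout allele tm1Ykoz. The labels name no sex, litter or treatment, and do not say whether a sample is 1 animal or a pool, so p-values measure the spread between these samples only. Each RNA was hybridised to an Illumina MouseRef-8 v2.0 BeadChip.

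Complex I, the NADH:ubiquinone oxidoreductase of the inner mitochondrial membrane, passes electrons from NADH to ubiquinone and pumps protons. Its peripheral arm holds the N module, where NADH is oxidised, and the Q module, where ubiquinone is reduced, and its membrane arm holds the proton channels. Nuclear Nduf genes encode the iron-sulfur and flavin subunits and the many supernumerary subunits around them, while the channel subunits are encoded in mitochondrial DNA. In the cochlea, the stria vascularis and hair cells are known for a high demand for mitochondrial ATP. None of the 7 mitochondrially encoded subunits was matched on the array by symbol, and *Ndufa11*, *Ndufs5*, *Ndufv3* and *Ndufb1* were not matched either and were not analysed here.

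On each array, 13873 to 15223 probes were detected, meaning a detection p under 0.05 against the negative control beads. The pair of arrays most alike was that of *Cmah*-null replicates 1 and 2, whose log2 signals differed with an SD of 0.13 where all other pairs had 0.31 to 0.64. The labels do not say whether these are separate mice; if they are not, the *Cmah*-null group holds fewer than 3 independent samples. Arrays fell into a set with fewer beads per probe (WT replicate 1 with a median of 34, *Cmah*-null replicates 1 and 2 with 32) and a set with more (WT replicates 2 and 3 with 39, *Cmah*-null replicate 3 with 38). The *Cmah* probe was detected on 3 of the 6 arrays, with log2 signals of 7.27, 7.28 and 7.87 in WT and 7.95, 7.98 and 7.27 in *Cmah*-null mice, so near to background that it does not check a genotype. Of 10 genes in the cochlear support and stria list, 7 were detected on all 6 arrays, and 3 had lower and 7 higher means in *Cmah*-null. *Coch*, one of the lower 3, was detected on all 6 arrays. It was at log2 10.40, 12.39 and 12.48 in WT and 11.29, 11.37 and 10.68 in *Cmah*-null. Of 10 hair cell genes, 5 were detected on all 6 arrays (*Myo7a*, *Otof*, *Myo6*, *Tmc1* and *Gfi1*) and *Slc26a5*, *Pou4f3* and *Strc* on none. In such bulk tissue, fewer cells of a type and less RNA per cell cannot be told apart.

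Complex I genes had lower mean signals in the *Cmah*-null cochlea, without a single gene past correction for the whole array. Of the 33 genes, 31 were detected on all 6 arrays and all 31 had a lower mean log2 signal in *Cmah*-null mice, although 5 of them (*Ndufa8*, *Ndufa10*, *Ndufb6*, *Ndufs7* and *Ndufv1*) were higher, by at most 0.20, under scaling of each array to a common median in place of quantile normalisation. That scaling moved the median of all detected probes to 0.30, and all 31 genes lay below it. A mean difference below 0 was found in 49.5% of all probes and in 46.9% of those detected on the 6 arrays. The median difference over the 33 genes was -0.69 on the log2 scale, against 0.00 over all probes and 0.03 over all probes detected on every array. Over the 31 detected genes the differences ran from -1.40 for *Ndufb5* to -0.24 for *Ndufs7*.

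By the threshold of 1.5-fold with an unadjusted p under 0.05 in limma, 8 of the 33 genes were lower and 0 were higher. This is 24.2% of the genes, where 1.41% of all probes were that much lower and 1.3% that much higher, and 2.64% of the detected probes were lower. By 1.5-fold alone, 22 genes were lower and 0 higher, against 3.28% of all probes lower and 777 of the 12410 detected on all 6 arrays. Of detected probes with a mean log2 signal of at least 12, 11.7% were that much lower, against 14 of the 20 complex I genes as bright. With an unadjusted p under 0.05 as well, it was 3.42% of these bright probes and 3 of the 20 genes. In 22 genes all 3 *Cmah*-null arrays lay below all 3 WT arrays, against 7.33% of all probes, and in 0 genes above them, against 9.11%. No gene passed a Benjamini-Hochberg adjusted p under 0.05 over all probes in limma, against 0.0% of all probes, where 10 genes had an unadjusted p under 0.05 and a lower mean, against 3.78% of all probes. The lowest adjusted p among the genes, by the brightest probe of each, was 0.372, and over all probes it was 0.250. The count of 8 was 4 without WT replicate 2, 5 without WT replicate 1 and 4 under the common median, where the share of all probes was not counted. The heat map of the genes shows where each array lies.

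**Figure D1:**
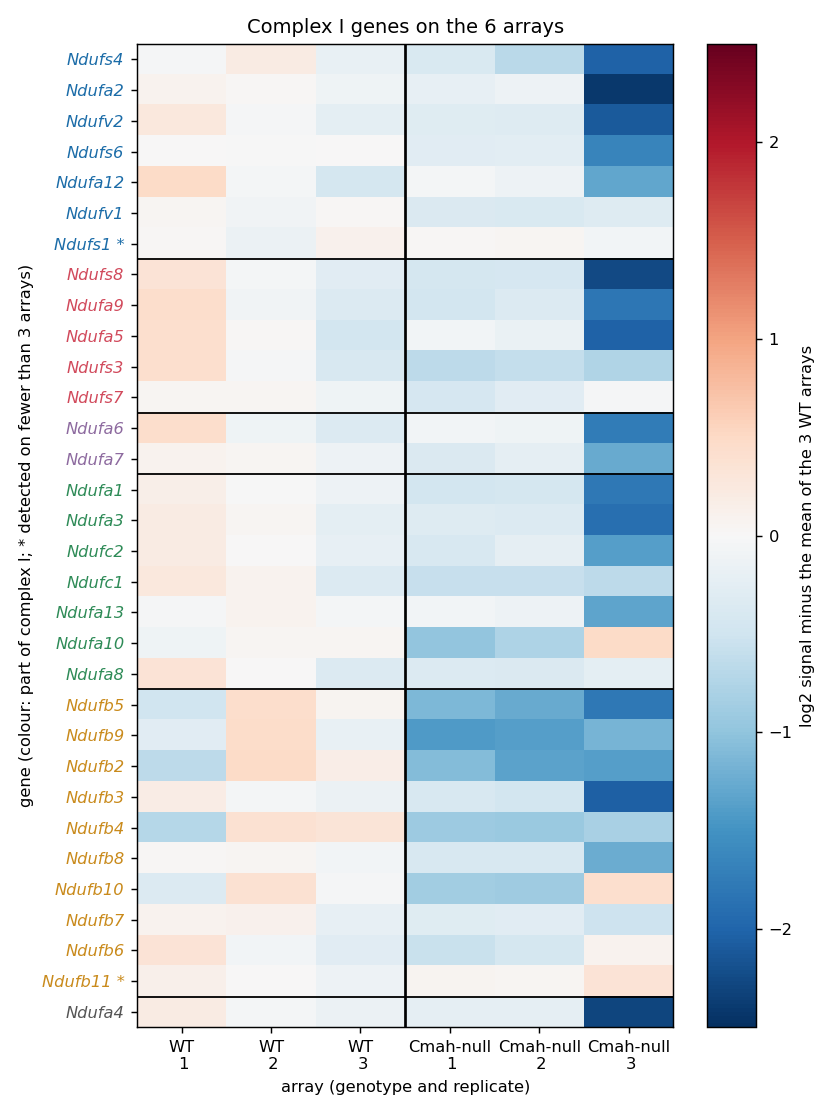
Log2 signal of 32 of the 33 genes (rows) on the 6 arrays (columns) minus the mean of the 3 WT arrays, with blocks from top to bottom for the N module, Q module, junction, proximal membrane arm, distal membrane arm and *Ndufa4*, and a star for genes detected on fewer than 3 arrays. Blue marks a lower signal: *Cmah*-null replicates 1 and 2 are pale blue in most rows, with 3 rows each more than 1 below the WT mean. Replicate 3 is more than 1 below the WT mean in 20 rows, lowest in *Ndufa2*. It is above that mean in *Ndufa10*, *Ndufb10*, *Ndufb6* and *Ndufb11*.

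Promoters, defined as 250 bases before to 50 after the annotated start, were taken from RefSeq on GRCm38.p6 to see what these genes share around the start. They were found for 29 of the 33 genes. Both strands were searched for the cores of 4 factors known to act on respiratory genes. NRF1, nuclear respiratory factor 1, binds around TGCGCA, which is its own reverse complement. GABPA, an ETS factor also called nuclear respiratory factor 2, binds around CCGGAAG. Oestrogen-related receptors bind AAGGTCA, and YY1 binds around AAGATGG. The letters AAG end the GABPA core and begin the cores of YY1 and the oestrogen-related receptors, so that their matches can overlap.

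The NRF1 core stood in 9 of the 29 promoters (31.0%), against 8.79% of the promoters of 27025 genes. It was found in *Ndufa5*, *Ndufa6*, *Ndufa8*, *Ndufa9*, *Ndufb4*, *Ndufb6*, *Ndufb8*, *Ndufb10* and *Ndufs6*. The YY1 core was in 7 (24.1%, against 7.28%), the GABPA core in 4 (13.8%, against 9.93%) and the oestrogen-related receptor core in 2 (6.9%, against 5.38%). At least 1 core was found in 17 promoters. The shares over the 27025 genes were not matched to these promoters by base composition or expression. A match of letters is a description and does not show that a factor is bound. Promoters are printed for 3 genes with lower means that between them hold all 4 cores, marked in capitals. They belong to *Ndufb8* at chr19:44555393-44555692, *Ndufb4* at chr16:37654319-37654618 and *Ndufs8* at chr19:3912725-3913024, all on the minus strand and printed 5′ to 3′. In *Ndufb8* the capitals are the NRF1 and then the YY1 core, in *Ndufb4* the NRF1 and then the oestrogen-related receptor core, and in *Ndufs8* the GABPA core read on the other strand. The marked cores of *Ndufb8* and *Ndufs8* lie in the 50 bases after the annotated start, and those of *Ndufb4* in the 250 bases before it.
Ndufb8: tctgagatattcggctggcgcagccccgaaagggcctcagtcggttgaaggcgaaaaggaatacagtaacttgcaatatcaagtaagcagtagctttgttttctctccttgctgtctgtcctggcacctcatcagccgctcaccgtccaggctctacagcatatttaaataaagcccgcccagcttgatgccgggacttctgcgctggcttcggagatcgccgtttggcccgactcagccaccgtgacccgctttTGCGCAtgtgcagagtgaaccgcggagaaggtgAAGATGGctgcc
Ndufb4: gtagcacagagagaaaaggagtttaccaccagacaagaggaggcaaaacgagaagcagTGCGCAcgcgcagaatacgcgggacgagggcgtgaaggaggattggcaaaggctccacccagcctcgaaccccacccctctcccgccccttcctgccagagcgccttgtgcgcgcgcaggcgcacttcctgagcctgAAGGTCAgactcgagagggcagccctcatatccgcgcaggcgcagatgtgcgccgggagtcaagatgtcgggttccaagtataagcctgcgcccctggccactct
Ndufs8: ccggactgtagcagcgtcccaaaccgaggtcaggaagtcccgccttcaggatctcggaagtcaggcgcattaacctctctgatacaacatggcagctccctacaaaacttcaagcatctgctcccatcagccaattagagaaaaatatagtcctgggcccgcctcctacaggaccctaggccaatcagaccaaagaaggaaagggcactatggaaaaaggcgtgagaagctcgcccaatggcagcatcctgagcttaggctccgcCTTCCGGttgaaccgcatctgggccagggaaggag

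*Nrf1* had log2 signals of 10.28, 10.46 and 10.77 in WT and 11.27, 11.11 and 10.66 in *Cmah*-null arrays, a difference of 0.51 (moderated SE 0.20, adjusted p 0.580 in limma). Its groups overlapped, with *Cmah*-null replicate 3 inside the WT range. *Gabpa* differed by 0.08 (-0.04 without replicate 3), *Esrra* by -0.13 (-0.53 without replicate 3), and *Yy1* was detected on none of the arrays.

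By the brightest probe of each gene, the N module was lower without a gene at the 1.5-fold threshold with p. It had 7 genes on the array, of which 5 had groups that did not overlap and 4 were at least 1.5-fold lower, with a median difference of -0.74, or -0.28 without *Cmah*-null replicate 3. *Ndufs4*, an accessory subunit needed to complete the N module, had log2 signals of 12.41, 12.64 and 12.24 in WT and 12.04, 11.75 and 10.41 in *Cmah*-null mice. The groups did not overlap, and the low *Cmah*-null value was that of replicate 3. The difference was -1.03 (moderated SE 0.43), or -0.53 without that array, and 3 further probes of *Ndufs4* gave -0.93, -1.39 and -1.07. The probes at -1.39 and -1.07 passed 1.5-fold with an unadjusted p (0.0021 and 0.047 in limma).

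*Ndufa2*, a small supernumerary subunit with a thioredoxin-like fold, stood at 13.64, 13.57 and 13.43 in WT and 13.34, 13.42 and 11.14 in *Cmah*-null mice. The first 2 *Cmah*-null arrays were just under the lowest WT array and the last was far below it, and the difference of -0.91 (SE 0.62) became -0.17 without replicate 3. *Ndufv1*, which binds the flavin and the NADH, had the smallest difference of the module and the tightest one. It was at 14.33, 14.20 and 14.31 in WT and at 13.92, 13.90 and 13.96 in *Cmah*-null mice. The 3 *Cmah*-null arrays had an SD of 0.03 and were all below WT, a difference of -0.36 (SE 0.07, adjusted p 0.397 in limma). Among the others, *Ndufv2*, its iron-sulfur partner, differed by -0.91 (SE 0.51), *Ndufs6* by -0.74 (SE 0.38) and *Ndufa12* by -0.49 (SE 0.41). *Ndufs1*, the largest iron-sulfur subunit, was not detected on any array, at 7.22, 7.05 and 7.28 in WT and 7.22, 7.23 and 7.11 in *Cmah*-null mice, so no fold is given.

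In the Q module, 5 of 6 genes were at least 1.5-fold lower and the median difference was -0.81, or -0.42 without *Cmah*-null replicate 3. *Ndufs3*, a core subunit of this module, was at 12.85, 12.39 and 12.02 in WT and at 11.78, 11.82 and 11.66 in *Cmah*-null mice. The groups did not overlap, and the difference was -0.67 (SE 0.21), or 1.59-fold, past the threshold with an unadjusted p.

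*Ndufs8*, which carries 2 iron-sulfur clusters, was at 13.22, 12.85 and 12.60 in WT and at 12.45, 12.47 and 10.63 in *Cmah*-null mice. Its groups did not overlap, and the difference of -1.04 (SE 0.53) was -0.43 without *Cmah*-null replicate 3. *Ndufs7*, which carries the last cluster before ubiquinone, had the smallest difference of all 31 genes, -0.24 (SE 0.12), with 14.13, 14.12 and 13.97 against 13.65, 13.80 and 14.04. Here replicate 3 was the highest *Cmah*-null array and lay inside the WT range. The accessory subunits *Ndufa9* and *Ndufa5* differed by -0.87 (SE 0.44) and -0.75 (SE 0.57). The 2 genes at the junction of the arm, *Ndufa6* and *Ndufa7*, differed by -0.64 (SE 0.50) and -0.61 (SE 0.28), both beyond 1.5-fold, and only *Ndufa7* had groups that did not overlap. Without replicate 3 they differed by -0.08 and -0.29.

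In the proximal membrane arm, 1 of 7 genes passed 1.5-fold with an unadjusted p, 4 were at least 1.5-fold lower, and the median difference was -0.60, or -0.36 without *Cmah*-null replicate 3. *Ndufc1*, a small membrane-spanning subunit, was at 13.07, 12.91 and 12.46 in WT and at 12.25, 12.25 and 12.15 in *Cmah*-null mice, a difference of -0.60 (SE 0.16) without overlap. Another probe of *Ndufc1* gave -0.51. *Ndufa1*, a small subunit needed for assembly, had the largest difference of this arm at -0.90 (SE 0.38), from 14.02, 13.85 and 13.74 to 13.41, 13.42 and 12.08. *Ndufa3* followed at -0.85 (SE 0.45), from 13.42, 13.26 and 12.97 to 12.89, 12.88 and 11.34. In both genes every *Cmah*-null array was below WT and replicate 3 was lower by more than 1 than the other two, and without it the differences were -0.45 and -0.33. *Ndufa8* had the smallest difference, -0.32 (SE 0.18), at 13.54, 13.20 and 12.85 in WT and 12.84, 12.83 and 12.94 in *Cmah*-null mice, where the groups overlapped. *Ndufa13*, also known as GRIM-19, differed by -0.50 (SE 0.34) and *Ndufc2* by -0.67 (SE 0.32).

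The distal membrane arm held 5 of the 8 genes that passed 1.5-fold with an unadjusted p, among 10 on the array, and its median difference was -0.79, or -0.69 without *Cmah*-null replicate 3. Of these 5, *Ndufb4*, *Ndufb5* and *Ndufb9* had probes with 44% or less G and C, a set described below. *Ndufb5* had the largest difference of all, at log2 10.76, 11.69 and 11.33 in WT and 10.13, 9.99 and 9.46 in *Cmah*-null mice. The groups did not overlap, with a difference of -1.40 (SE 0.29), or 2.63-fold, and an adjusted p of 0.397 in limma. *Ndufb9*, a LYR-motif subunit, went from 10.53, 11.28 and 10.64 to 9.40, 9.45 and 9.65. The *Cmah*-null arrays had an SD of 0.14 against 0.41 in WT, and the difference was -1.32 (SE 0.21), or 2.49-fold. Its adjusted p, 0.372 in limma, was the lowest of the family by the brightest probe of each gene.

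*Ndufb2* was at 9.92, 11.05 and 10.74 in WT and at 9.48, 9.24 and 9.21 in *Cmah*-null mice, a 2.40-fold difference of -1.26 (SE 0.30). *Ndufb4* was at 8.50, 9.60 and 9.54 in WT and at 8.30, 8.29 and 8.40 in *Cmah*-null mice, a difference of -0.88 (SE 0.30). In both genes WT replicate 1 was the lowest WT array, with a deviation of -0.97 and -1.07 from the mean of the other two, and the groups still did not overlap. *Ndufb8*, the bright probe whose promoter is printed above, had little spread in WT, at 14.90, 14.92 and 14.80, against 14.46, 14.46 and 13.62 in *Cmah*-null mice. Its difference was -0.69 (SE 0.24), or 1.61-fold, and -0.41 without replicate 3. The adjusted p of *Ndufb2*, *Ndufb4* and *Ndufb8* in limma was 0.417, 0.549 and 0.552.

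*Ndufb6* had the smallest difference of the distal arm, -0.30 (SE 0.24), at 14.12, 13.71 and 13.48 in WT and 13.21, 13.33 and 13.86 in *Cmah*-null mice, and the groups overlapped because replicate 3 lay inside the WT range. *Ndufb3* differed by -0.97 (SE 0.46) and *Ndufb7* by -0.37 (SE 0.12), each without overlap. *Ndufb11* was detected on 2 arrays, at 7.56, 7.45 and 7.30 in WT and 7.51, 7.48 and 7.77 in *Cmah*-null mice, and has no fold. *Ndufa4*, the gene outside complex I, was at 14.69, 14.44 and 14.33 in WT and at 14.26, 14.27 and 12.20 in *Cmah*-null mice. The groups did not overlap, but the difference of -0.91 (SE 0.58) was -0.22 without replicate 3. The 7 core subunits that carry flavin, clusters or the quinone site had a median difference of -0.67 and the 25 supernumerary subunits one of -0.69, or -0.37 and -0.40 without replicate 3. The plot of differences by module sets these values side by side.

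**Figure D2:**
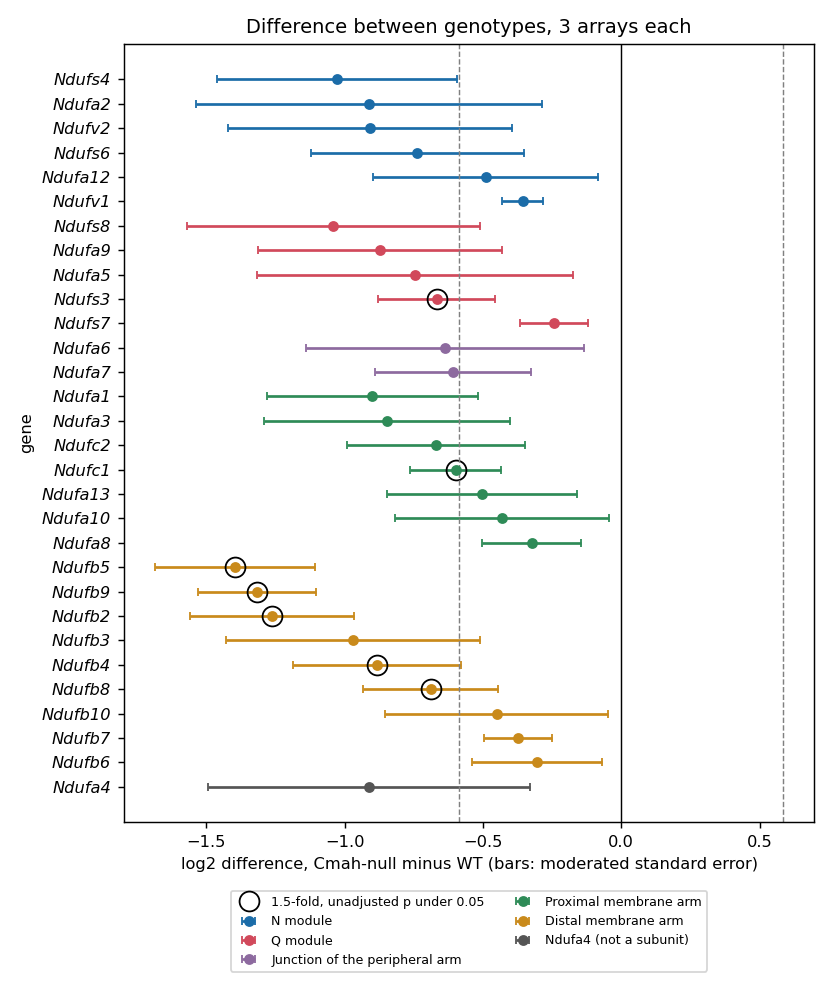
Log2 difference between *Cmah*-null and WT (x axis) for 30 of the 31 genes detected on all 6 arrays (y axis), coloured by module, with bars for the moderated standard error, dashed lines at 1.5-fold and rings around 7 of the 8 genes past 1.5-fold with unadjusted p under 0.05. All points lie left of 0, from -0.24 for *Ndufs7* to -1.40 for *Ndufb5*, although 5 of them were above 0 with median scaling (*Ndufa8*, *Ndufa10*, *Ndufb6*, *Ndufs7* and *Ndufv1*), and 5 of the 7 rings are in the distal membrane arm.

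*Cmah*-null replicate 3 stood apart from the other *Cmah*-null arrays in many of these genes. Its log2 signal was more than 1 below the mean of replicates 1 and 2 in 15 of the 31 detected genes (48.4%), against 10.2% of all probes detected on every array. Among detected probes with a mean log2 signal of at least 12 that share was 20.8%, and among the complex I genes as bright it was 55.0% (11 of 20). The step ran from -2.24 for *Ndufa2* to 1.36 for *Ndufa10*. In 10 genes replicate 3 was within 0.5 of the other two, and these included *Ndufs3*, *Ndufb2*, *Ndufb4*, *Ndufb9* and *Ndufc1* from the 8 genes past the threshold.

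In 3 genes, named here after their values were seen, replicate 3 was more than 0.5 above the other two, as in 24.7% of all detected probes. *Ndufa10*, a subunit related to nucleoside kinases, was at 13.66, 13.81 and 13.81 in WT and at 12.77, 12.99 and 14.24 in *Cmah*-null mice. *Ndufb10* was at 10.42, 11.15 and 10.74 in WT and at 9.90, 9.88 and 11.18 in *Cmah*-null mice. In both, replicates 1 and 2 were below every WT array and replicate 3 above every one. *Ndufb6*, described above, was the other.

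Without replicate 3, all 31 genes were still lower, from -1.39 to -0.08, and the median over the 33 genes was -0.37 in place of -0.69. The 8 genes then past 1.5-fold with an unadjusted p held 6 of the 8 counted on all arrays, with *Ndufa10* and *Ndufb10* in place of *Ndufb8* and *Ndufc1*, against 1.82% of all probes. In that fit the *Cmah*-null group is replicates 1 and 2 alone. The labels do not say whether these are separate mice, so its p-values may rest on fewer independent samples. Replicates 1 and 2 were both below all WT arrays in 27 of the 31 genes, against 17.1% of detected probes. Replicate 3 was below all WT arrays in 26, for which the share of probes was not counted. Replicates 1 and 2 differed from each other by at most 0.29 in any of these genes, while the WT arrays had a median range of 0.50. Among WT arrays, replicate 1 was the highest in 21 genes and replicate 3 the lowest in 23. The family's median log2 signal was 13.22, 12.91 and 12.60 in WT and 12.49, 12.63 and 11.34 in *Cmah*-null replicates 1, 2 and 3.

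**Figure D3:**
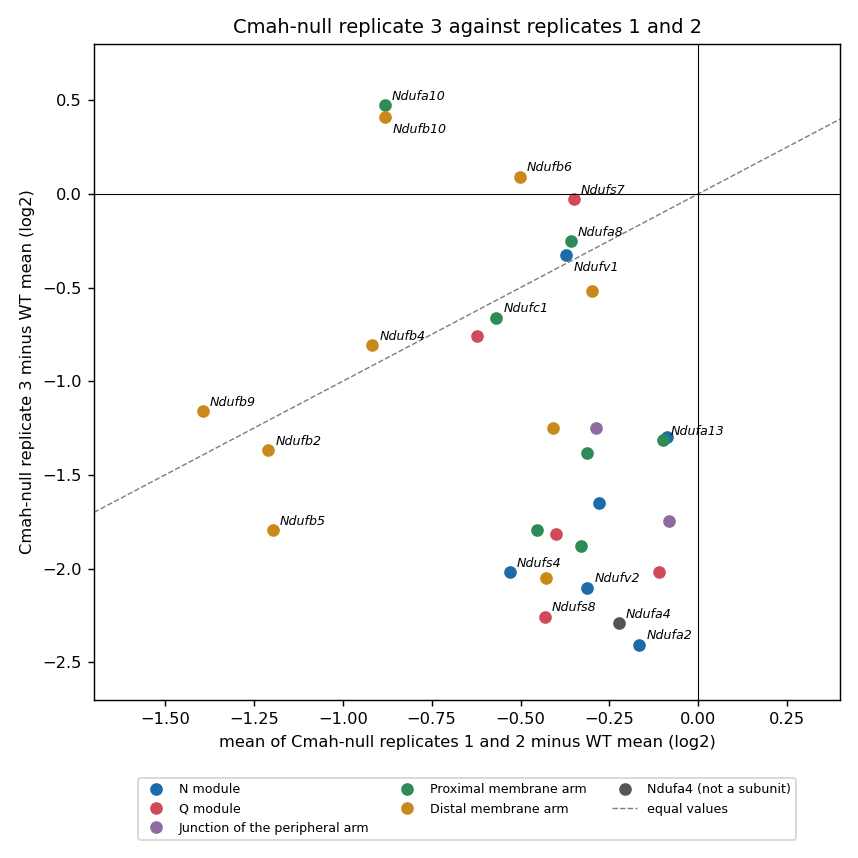
For 30 of the 31 detected genes, the signal of *Cmah*-null replicate 3 minus the WT mean (y axis, log2) against the mean of replicates 1 and 2 minus the WT mean (x axis, log2), with a dashed line where both are equal. All points lie left of 0 on the x axis, 15 lie more than 1 below the dashed line, and *Ndufa10*, *Ndufb10* and *Ndufb6* lie above 0 on the y axis.

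Probes of one gene did not always give the same profile. There were 7 genes with more than 1 probe, and the sequences of both probes are given for 2 whose probes differ, each a run of 50 bases printed 5′ to 3′.
Ndufa5, brightest probe: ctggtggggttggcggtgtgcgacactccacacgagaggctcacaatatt
Ndufa5, other probe: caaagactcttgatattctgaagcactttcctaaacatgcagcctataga
Ndufa8, brightest probe: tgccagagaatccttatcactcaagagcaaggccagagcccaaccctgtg
Ndufa8, other probe: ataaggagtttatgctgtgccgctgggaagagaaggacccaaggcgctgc
The probes of *Ndufa5* start at bases 172 and 227 of the transcript and have 58.0% and 38.0% G and C. The brightest was at 13.39, 12.99 and 12.50 in WT and at 12.89, 12.80 and 10.94 in *Cmah*-null mice, overlapping, with replicate 3 set apart. The other was at 9.14, 10.37 and 10.24 in WT and at 8.78, 8.65 and 8.75 in *Cmah*-null mice, where the groups did not overlap, replicate 3 was level with the others, and WT replicate 1 was low. The difference was -0.75 by the brightest probe and -1.19 (SE 0.33) by the other, which passed 1.5-fold with an unadjusted p of 0.012 in limma.

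For *Ndufa8*, the other probe starts at base 169 against 460. It gave -0.85 (SE 0.12, unadjusted p 0.00054 and adjusted p 0.365 in limma), past 1.5-fold, where the brightest gave -0.32. It was at 11.25, 11.35 and 10.93 in WT and at 10.38, 10.29 and 10.31 in *Cmah*-null mice, without overlap. Which transcripts the probes of a gene share was not tested.

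Base composition and bead number moved with some of these values. The 5 detected genes whose probe had 44% or less G and C had a median genotype difference of -1.05, and the 10 genes over 56% had one of -0.62. Of those 5 genes, 4 passed 1.5-fold with an unadjusted p, among them *Ndufb4*, *Ndufb5* and *Ndufb9* of the distal membrane arm. So did 2 of the 4 genes over 44 to 50%, 1 of the 12 over 50 to 56% and 1 of the 10 over 56%. The share of all probes that passed was not counted by base composition. Over all 1215 detected probes with 44% or less, WT replicate 1 had a median deviation of -0.34 from the mean of the other WT arrays, and the genotype difference had a median of -0.10 (log2, *Cmah*-null minus WT). Over the 2846 detected probes over 56% these medians were 0.04 and 0.08. The part of base composition in the result was not tested.

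The arrays with fewer beads were those of WT replicate 1 and *Cmah*-null replicates 1 and 2. With the bead set as a block, 23 genes passed 1.5-fold with an unadjusted p, against 3.4% of all probes, with a median difference of -0.90, and 0 passed an adjusted p under 0.05. Within the arrays with fewer beads, 31 of 31 detected genes were lower in *Cmah*-null mice. The family's median was -0.53, against 0.04 over all detected probes, and WT replicate 1 is the only WT array of that set. Within the arrays with more beads, 28 of 31 were lower and the median was -1.28, against 0.05 over all detected probes. There *Ndufa10* (0.42), *Ndufb6* (0.27) and *Ndufb10* (0.24) were higher, and replicate 3 is the only *Cmah*-null array of that set. The share of all probes that were lower within a bead set was not counted.

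Most genes that build complex I or work beside it had lower means too. Of 14 assembly factors 7 were on the array, all with lower means, though *Nubpl* (-0.03) was detected on no array. The median difference was -0.55, or -0.35 without *Cmah*-null replicate 3. *Tmem70*, which helps to assemble the membrane arm and ATP synthase, was at 9.84, 9.82 and 9.64 in WT and at 9.08, 9.09 and 8.93 in *Cmah*-null mice. The arrays of each genotype were close together, and the difference was -0.73 (SE 0.09, adjusted p 0.365 in limma). *Foxred1*, an assembly factor of the oxidoreductase family, differed by -0.60 (SE 0.16). *Tmem70* and *Foxred1* were the 2 factors past 1.5-fold with an unadjusted p, against 1.41% of all probes and 2.64% of detected probes. Without replicate 3, *Foxred1* differed by -0.46, under 1.5-fold, and *Tmem70* by -0.68. *Ndufaf1*, of the intermediate assembly complex, differed by -0.45, or -0.24 without replicate 3. *Ndufab1*, the acyl carrier protein that sits in both arms, was detected on 4 arrays and differed by -0.15, or -0.52 without replicate 3.

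In complex II, the succinate dehydrogenase, 2 of 3 genes on the array passed 1.5-fold with an unadjusted p, against 1.41% of all probes. *Sdhb*, its iron-sulfur subunit, was at 11.87, 11.69 and 11.26 in WT and at 10.66, 10.58 and 10.32 in *Cmah*-null mice, a difference of -1.09 (SE 0.18) without overlap. *Sdhd*, a membrane anchor, differed by -1.04 and *Sdhc* by -0.30. Of 40 genes of complexes III, IV and V, 7 were lower and 1 higher at that threshold, with a median of -0.34. The shares of all probes were 1.41% lower and 1.3% higher. Of 11 genes for other mitochondrial proteins, such as citrate synthase, porins and chaperones, 0 passed it, 4 had an unadjusted p under 0.05 in limma, and the median was -0.42. With each array scaled to a common median, where detected probes had a median of 0.30, these 2 lists had medians of -0.04 and 0.04. *Sirt3*, the mitochondrial deacetylase, was at 11.75, 11.70 and 11.52 in WT and at 11.20, 11.12 and 11.07 in *Cmah*-null mice, a difference of -0.53 (SE 0.09) without overlap. *Ppargc1a*, a coactivator of mitochondrial biogenesis, differed by -0.65 and was the 1 of 11 regulators past 1.5-fold with an unadjusted p, but without *Cmah*-null replicate 3 it differed by -0.37, under 1.5-fold.

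Markers of brown fat were lower in mean as well. Of 11 brown fat genes, 5 were lower at 1.5-fold with an unadjusted p, against 1.41% of all probes, and the median was -0.70. *Ucp1*, the uncoupling protein of brown fat, was at 13.63, 12.48 and 11.79 in WT and at 10.82, 10.84 and 9.90 in *Cmah*-null mice, a difference of -2.11, while *Dio2* and *Prdm16* were detected on no array. *Cox7a1* and *Cox8b*, among the 5, are also subunits of complex IV and used by muscle. The order of the arrays was the same for brown fat and complex I, with the median of each gene's deviation from its own mean at 0.67, 0.27 and 0.21 in WT and -0.28, -0.19 and -0.49 in *Cmah*-null mice for brown fat. For complex I it was 0.50, 0.39 and 0.19 in WT and -0.05, -0.03 and -0.95 in *Cmah*-null mice. The assembly factors had this order too, at 0.30, 0.29 and 0.10 in WT and -0.13, -0.01 and -0.59 in *Cmah*-null mice. Complexes III, IV and V, a list that also holds *Cox7a1* and *Cox8b*, had it apart from *Cmah*-null replicates 1 and 2, which were nearly level (-0.01 and -0.02). Brown fat is rich in complex I, and its part in the lower complex I signal was not tested.

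Of 17 skeletal muscle genes, 1 (*Mb*, myoglobin, at -0.87) passed the threshold, 16 had lower means, and the median was -0.51. Their deviation was 0.52, 0.50 and -0.40 in WT and -0.30, -0.24 and 0.10 in *Cmah*-null mice, so WT replicate 3 was the lowest array and the groups overlapped, unlike complex I. All but 2 of the 17 were detected on all 6 arrays. Of 10 cochlear support and stria genes 0 passed, with a median of 0.10, of 10 hair cell genes 0, with a median of 0.07, and of 7 neuronal genes 1 (*Prph*, at -1.37), with a median of -0.06. Medians of the fat (8 genes), blood and marrow (10) and bone (5) lists were -0.34, -0.03 and -0.13, with 1 fat gene past the threshold. Whether the amount of muscle or fat in the dissected tissue set any of these differences was not tested.

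**Figure D4:**
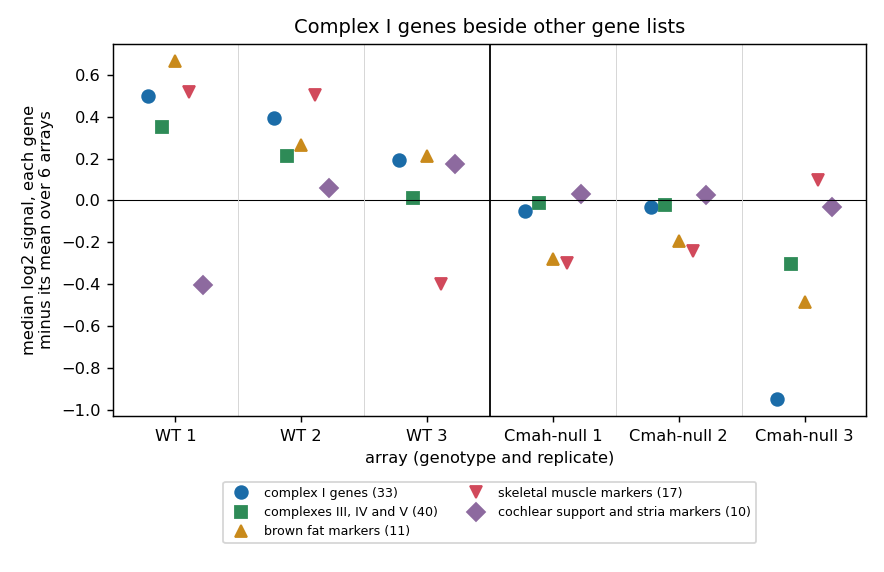
Median over each list, for every array (x axis), of the log2 signal of a gene minus its mean over the 6 arrays (y axis), with the number of genes in brackets. Complex I genes and brown fat genes were above 0 on the 3 WT arrays and below 0 on the 3 *Cmah*-null arrays, whereas skeletal muscle genes were below 0 on WT replicate 3 and above 0 on *Cmah*-null replicate 3.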

How the data were processed

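Total RNA of 3 WT and 3 *Cmah*-null cochlear samples was hybridised to 1 array each. Per the file headers, the authors deposited the average bead signal of each probe as a linear intensity without normalization, the number of beads (a count) and a detection p value against negative controls. They also deposited log2 values, which equalled quantile-normalised log2 signals to within 5e-07. Columns named "old" were read as *Cmah*-null, as the sample titles give no other second group. The deposited fold changes and test statistics were not used, nor were 18 further columns of values per sample.

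The members, gene lists and tests were chosen with earlier results of these data known. Deposited log2 values were compared with limma 3.58.1 (lmFit, eBayes, two-sided, no covariate) in R 4.3.3, with Benjamini-Hochberg adjustment over 25697 probes, after a test on simulated data. SE is the moderated standard error. Genes were called at 1.5-fold with an unadjusted p under 0.05. Values per array were given for the 2 largest and the smallest differences of each module, all called genes, genes higher in *Cmah*-null or detected on fewer than 3 arrays, and *Ndufa4*. The values of 1 member of the family are not reported here, though it stays in the counts and medians. Lists were described by counts and medians, without a test. Alternatives were neqc (offset 16), median scaling, a filter at 3 detected arrays, blocks for replicate number and bead set (median beads under or over 36), a trended robust prior, *Cmah*-null replicates 1 and 2 averaged, all probes averaged, membership without *Ndufa4*, and each array left out. With 3 arrays a group, precision is limited by their number and an exact permutation test cannot go under a p of 0.1. Plots used matplotlib 3.10.9 (Python 3.11.15).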

Additional observations from a re-analysis of the deposited data

How the results depend on the processing

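In each alternative with a test, 0 complex I genes were higher at 1.5-fold with an unadjusted p and 0 passed an adjusted p under 0.05 in limma. By 1.5-fold alone 0 were higher. The median stayed below 0 wherever it was recomputed, the values within each bead set included, which have no test. The count of 8 lower genes became 4 with median scaling, 15 with the replicate number as a block, 23 with the bead set as a block and 22 by 1.5-fold alone, and was 8 to 10 with neqc, the detection filter, the robust prior, averaged probes, averaged *Cmah*-null replicates and without *Ndufa4*. Leaving out 1 array gave 4 (without WT replicate 2) to 10 (without *Cmah*-null replicate 2), with 5 without WT replicate 1, and medians of -0.89 to -0.37. The share of all probes that were lower was 1.41% in the reported fit, 3.4% with the bead block, 1.82% without *Cmah*-null replicate 3 and 3.28% by 1.5-fold alone. It was not counted for the other settings, so their counts cannot be set against the whole array. *Ndufb2*, *Ndufb5* and *Ndufb9* were among the 4 genes left both with median scaling and without WT replicate 2. The median was -0.27 with median scaling and -1.28 within the arrays with more beads.

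Over 31 genes and 16 alternatives, 118 of 496 differences equalled the reported ones, mostly because the alternative alters only the test, and of the other 378, 370 kept their direction. The 8 exceptions were *Ndufa10* (0.0645), *Ndufa8* (0.20), *Ndufb6* (0.16), *Ndufs7* (0.20) and *Ndufv1* (0.0799) with median scaling, where the median of detected probes was 0.30, and *Ndufa10* (0.42), *Ndufb10* (0.24) and *Ndufb6* (0.27) within the arrays with more beads. The cause was not tested. Replicate numbers did not pair the samples: deviations of same-numbered arrays correlated at 0.02, -0.17 and 0.01, and 0 of 6 arrays correlated best with their own number. *Ndufs1* and *Ndufb11*, near background, limit what can be said of those subunits.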
